A study of Mus musculus with 42 samples.

Results

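Serpins are a large family of protease inhibitors, and the 60 autosomal protein-coding genes of the mouse whose symbol begins with Serpin were placed relative to lamina-associated domains (LADs) in liver. The annotation (GENCODE vM21, build GRCm38) holds 20807 autosomal protein-coding genes in all. Of the 60 Serpin genes, 23 formed the Serpina cluster of chromosome 12, 11 the Serpinb cluster of chromosome 1 and 15 the Serpinb cluster of chromosome 13, where a cluster is a run of genes whose neighboring start sites are at most 1 Mb apart. The other 11 genes stand alone or in pairs. The symbol Serpin is carried by 68 genes of any type, and the 8 left out are 7 pseudogenes or polymorphic pseudogenes and Serpina7 on chromosome X.

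Chromatin was immunoprecipitated with an antibody against lamin B1 (LMNB1), a protein of the nuclear lamina, and sequenced in liver pieces from 14 wild-type C57Bl/6 mice, 1 library per mouse. There were 2 mice in each of 7 groups. The labels list 1 input library (chromatin without antibody) per group, so both mice of a group may share it. The liver of non-synchronized (NS) mice was collected at midday, before any fast, and the mice of circadian time (CT) 0, 6, 12, 18, 24 and 30 h had been fasted for 24 h and refed from CT0 (lights on), so all CT groups share the fast. The labels call the mice female in 2 fields, whereas their growth protocol and the study's methods call them male, and no age is given. The processed files hold positions of LADs and no expression values, so the tissue was not checked against liver markers. A LAD is called over all cells of a liver piece, and contact in fewer cells cannot be told apart from weaker contact in each cell.

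A serpin presents a flexible loop as bait to a protease, and on cleavage changes shape and traps the enzyme. Clade A serpins, such as alpha-1-antitrypsin (Serpina1), are mostly secreted into plasma by the liver, whereas clade B serpins act inside cells and are known mainly from skin, other epithelia and blood cells. Domains in contact with the lamina are typically poor in genes and rich in A and T, and genes within them are mostly silent.

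The 14 libraries held 86 to 341 LADs each, 2845 in all, which covered 333.0 to 651.6 Mb of the autosomes. Between 4.18% and 10.8% of all autosomal protein-coding genes had their start site in a LAD. LAD borders lay on a grid whose step, called the bin size, differed between libraries from 4 to 61 kb, and the libraries of 1 time point could differ widely in it (61 and 4 kb in NS mice, 47 and 4 kb at CT0). No count of reads is given per LAD, so depth is unknown. Spread is given between the 2 mice of a group, or over all 14 libraries where so stated. The scatter of LAD calls between repeated runs of the caller was not analysed here.

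The start sites of 15 Serpin genes lay in a LAD in at least 1 library, against a background of 17.1% of all autosomal protein-coding genes. These were 6 Serpinb genes of chromosome 1, 7 Serpinb genes of chromosome 13, and the neighbors Serpini1 and Serpini2 of chromosome 3. The other 45 were in a LAD in no library (background 82.9%), and 0 were in a LAD in all 14 (background 0.875%). All 15 were in a LAD in 1 to 3 libraries, a state that 6.64% of all genes had, with 2 genes in 3 libraries, 12 in 2 libraries and 1 in a single library. Thus each Serpin gene that met a LAD was outside LADs in most of the 14 mice.

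Counted per library, 6 libraries had a Serpin gene in a LAD and 8 had none. The count was 2 genes in NS replicate 2, 2 in CT6 replicate 1, 8 in CT6 replicate 2, 6 in each CT12 mouse and 7 in CT18 replicate 2. At CT12 the share of Serpin genes was 10% in both mice, beside 8.51% and 9.85% of all genes. Of all genes, 8.28% were in a LAD in NS replicate 2, 7.3% and 10.2% in the CT6 mice and 10.8% in CT18 replicate 2. In the libraries without a Serpin gene in a LAD, the share of all genes was 4.18% in NS replicate 1, 5.54% and 8.62% at CT0, 9.79% in CT18 replicate 1, 9.48% and 8.2% at CT24, and 6.31% and 5.79% at CT30. At CT6 and CT18 the 2 mice of a time point did not share the count (3.33% and 13.3% at CT6, 0% and 11.7% at CT18). The 6 libraries with a Serpin gene in a LAD had bin sizes of 4 to 35 kb and 134 to 341 LADs, and the 8 others had bin sizes of 4 to 61 kb and 86 to 285 LADs. Whether the bin size plays a part was not tested.

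**Figure D1:**
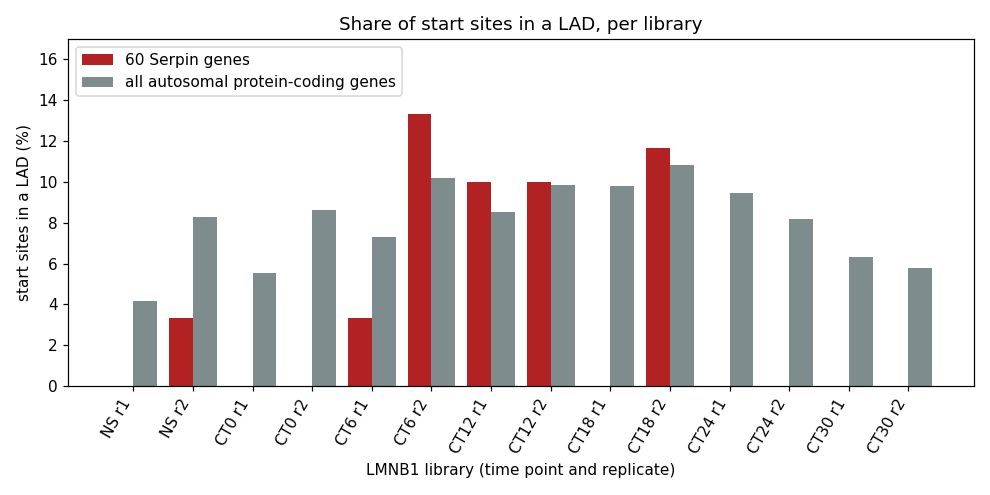
Bars show the share of start sites in a LAD (%) in each LMNB1 library, red for the 60 Serpin genes and gray for all autosomal protein-coding genes. The red bar is at 0 in 8 libraries and highest in CT6 replicate 2, at 13.3%.

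Other Serpin genes were far from LADs. The start sites of 26 Serpin genes lay more than 5 Mb from the nearest LAD in every library, against a background of 18.7% of genes, and 23 of those 26 belong to the Serpina cluster of chromosome 12. Because the genes of a cluster share the LAD borders around them, they are not independent of each other, and no test was made on such a count. The median over Serpin genes of their median distance to a LAD was 5961 kb, and that over all genes was 3707 kb.

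**Figure D2:**
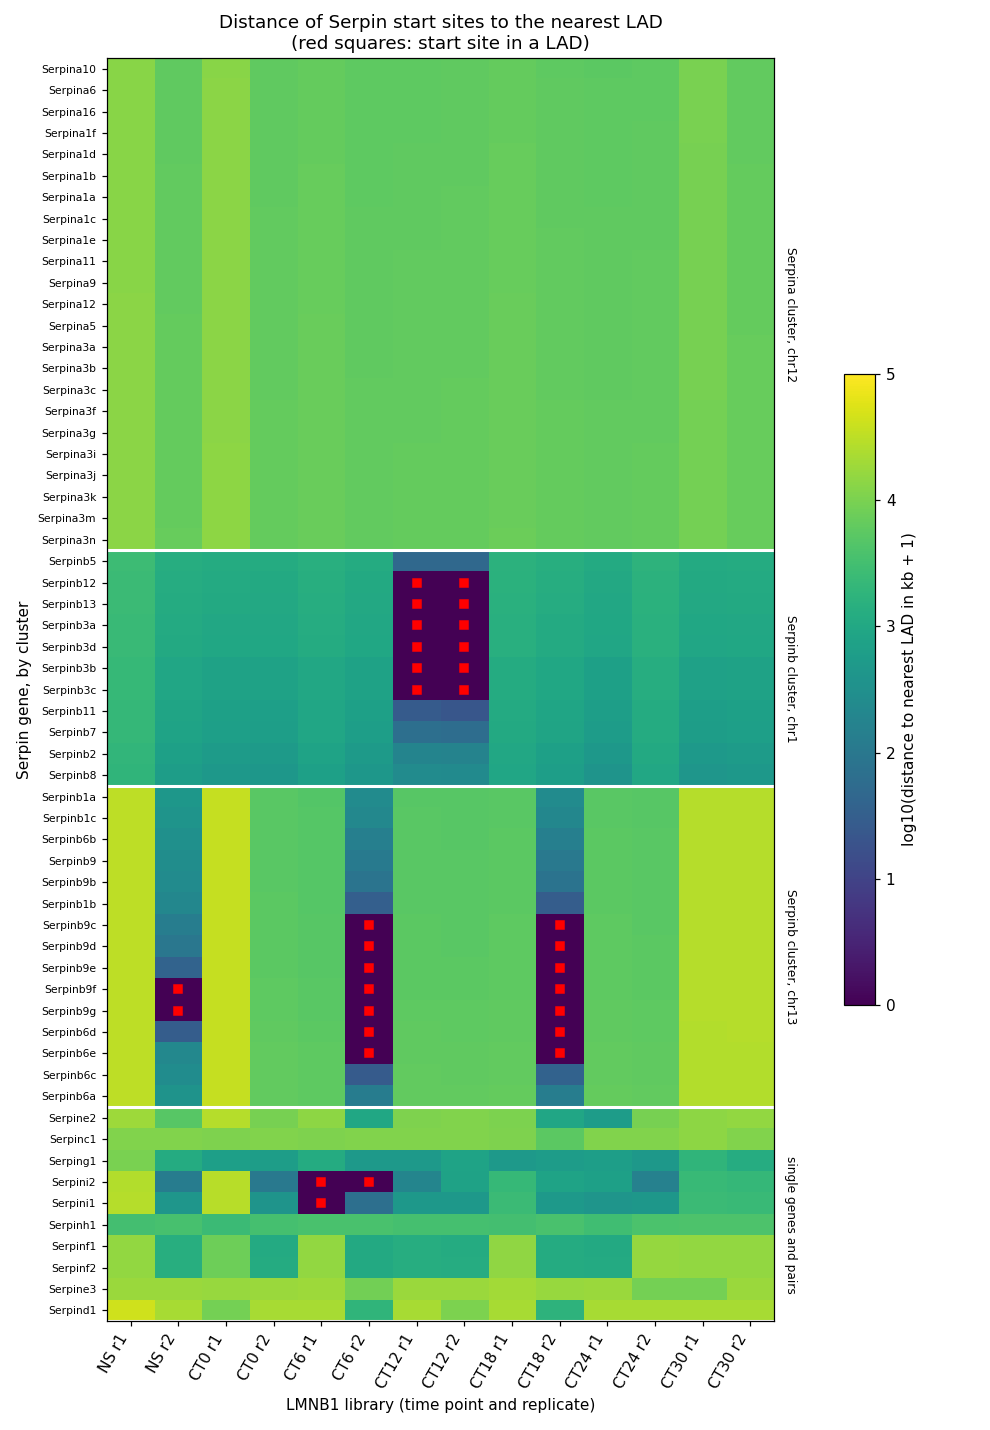
Each row is a Serpin gene, ordered by cluster and position, each column a library, and the color gives log10 of the distance (kb + 1) from the start site to the nearest LAD, with a red square where the start site is in a LAD. The squares form 1 block at CT12 on chromosome 1, blocks in 3 replicate 2 libraries on chromosome 13 and a small block at CT6 for Serpini2 and Serpini1, and the Serpina rows hold none.

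The Serpinb cluster of chromosome 1 (chr1:106861173-107610484, 749 kb) holds 11 genes, from Serpinb5 (maspin) through the squamous cell carcinoma antigen genes Serpinb3a to Serpinb3d, inhibitors of cathepsins, to Serpinb2 (plasminogen activator inhibitor 2) and Serpinb8. Both CT12 mice had a LAD over its middle, chr1:106910001-107335000 (425 kb) in replicate 1 and chr1:106910001-107340000 (430 kb) in replicate 2. The 2 LADs began on the same base and ended 5 kb apart. The labels list a single input for CT12, so this agreement need not be independent between the mice. Both LADs held the start sites of Serpinb12, Serpinb13, Serpinb3a, Serpinb3d, Serpinb3b and Serpinb3c, which are all 6 of the protein-coding start sites inside. No library of another group had a LAD over the cluster.

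Promoters of this region are shown because the start sites of these genes decide which genes were inside and which outside. RefSeq windows of 300 bases (GRCm38.p6), 250 before and 50 after the start site, are written 5′ to 3′ on the strand of the gene. Serpinb12 (chr1:106934199-106934498, plus strand), the first gene inside, Serpinb3a (chr1:107052254-107052553, minus strand) and Serpinb3b (chr1:107161065-107161364, minus strand), both in the middle, and Serpinb11 (chr1:107362064-107362363, plus strand), the first gene outside on the far side, follow. Capitals mark TATAAA, the letters of a TATA box, and GTTAAT, the core of sites bound by the liver factor HNF1, each searched on both strands (TTTATA and ATTAAC on the other strand).
Serpinb12: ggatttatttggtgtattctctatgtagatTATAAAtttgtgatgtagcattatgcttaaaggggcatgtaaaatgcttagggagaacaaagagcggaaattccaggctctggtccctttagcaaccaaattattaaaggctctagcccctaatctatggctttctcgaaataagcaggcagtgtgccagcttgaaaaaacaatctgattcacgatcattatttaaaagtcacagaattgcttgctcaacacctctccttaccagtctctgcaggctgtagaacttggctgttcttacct
Serpinb3a: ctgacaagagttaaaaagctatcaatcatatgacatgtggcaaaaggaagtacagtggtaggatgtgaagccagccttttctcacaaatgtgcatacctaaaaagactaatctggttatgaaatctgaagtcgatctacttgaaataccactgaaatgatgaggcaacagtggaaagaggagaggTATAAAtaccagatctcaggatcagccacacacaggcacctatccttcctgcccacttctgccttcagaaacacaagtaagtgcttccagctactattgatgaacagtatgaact
Serpinb3b: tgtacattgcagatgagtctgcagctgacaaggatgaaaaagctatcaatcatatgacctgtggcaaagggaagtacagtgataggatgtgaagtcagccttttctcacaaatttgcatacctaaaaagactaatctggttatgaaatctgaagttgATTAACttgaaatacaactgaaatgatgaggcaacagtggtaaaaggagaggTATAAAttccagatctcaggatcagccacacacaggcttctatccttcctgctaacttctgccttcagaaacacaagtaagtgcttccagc
Serpinb11: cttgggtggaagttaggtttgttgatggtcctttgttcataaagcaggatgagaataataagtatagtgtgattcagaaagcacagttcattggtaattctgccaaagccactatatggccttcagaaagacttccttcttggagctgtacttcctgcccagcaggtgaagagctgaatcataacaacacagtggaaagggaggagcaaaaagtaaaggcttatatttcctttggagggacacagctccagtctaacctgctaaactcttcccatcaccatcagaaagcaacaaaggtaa
The letters TATAAA were present in 13.6% of 31396 autosomal promoter windows, in at least 1 window of 15.7% of all genes and of 7 of the 10 chromosome 1 Serpinb genes with a RefSeq window. The match could lie anywhere in the window. In Serpinb3a and Serpinb3b it stands shortly before the start site, whereas in the printed Serpinb12 window it stands near the far end. The windows of Serpinb3a, Serpinb3b and Serpinb3c were 74.6% to 90% identical. That of Serpinb3d shared 44.6% to 48.0% with them, beside a median of 46.6% over all 45 pairs of the cluster. Whether the Serpinb3d window is placed as theirs are was not tested, so its share need not measure how far the promoters differ. The window of Serpinb11 holds neither motif.

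The start site of Serpinb3a was 2443 and 1140 kb from the nearest LAD in the 2 NS mice (replicates 1 and 2, the order kept throughout), 1001 and 979.7 kb at CT0, 1238 and 989.7 kb at CT6, 0 and 0 kb at CT12, 1438 and 1164 kb at CT18, 929.7 and 1524 kb at CT24, and 951.7 and 1001 kb at CT30. The 2 CT12 mice were thus inside and every other mouse was outside by at least 929.7 kb, so CT12 did not overlap with any other group. Serpinb3a stood 142 kb inside the LAD in both CT12 mice.

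Outside CT12 the nearest LAD was always the same large domain on the downstream side, so the other genes of the cluster followed Serpinb3a at a fixed gap. Serpinb12, a serpin of epithelia, was 118 kb farther from that domain and Serpinb13 (headpin) 71.3 kb farther, whereas Serpinb3d was 31.2 kb nearer and Serpinb3b and Serpinb3c were 226 kb nearer. At CT12 Serpinb12 was only 24.4 kb inside the border in both mice, and Serpinb13 71.0 kb. Serpinb3d stood 174 kb inside in both mice, and Serpinb3b and Serpinb3c 56.6 kb inside in replicate 1 and 61.6 kb in replicate 2. The annotated start of Serpinb3b in GENCODE lies next to that of Serpinb3c, while its RefSeq start is the one in the window printed above. By either start site Serpinb3b was inside the LAD in the 2 CT12 mice.

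The genes on both flanks of the cluster stayed outside in all 14 mice. Serpinb5 on the upstream side was 48.8 kb outside in both CT12 mice and 1121 to 2634 kb from a LAD in the other mice. On the other side Serpinb11 was 26.2 and 21.2 kb outside at CT12, Serpinb7 64.7 and 59.7 kb, Serpinb2 176 and 171 kb, and Serpinb8 255 and 250 kb, the latter against 392 to 1905 kb elsewhere. These 5 genes were nearer to a LAD in both CT12 mice than in any other mouse without being in one. With the 6 genes inside, 11 Serpin genes had this order, as did 0.577% of all genes, and the 11 share the borders of 1 LAD. The genes just inside and just outside the borders were Serpinb12 and Serpinb11.

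The LAD downstream began between 372 and 1885 kb beyond the end of the cluster in all 14 libraries, and Cdh7, the next protein-coding gene on that side, was in a LAD in 14 of 14. Vps4b, the next gene upstream, was in a LAD in 0 libraries but, like Serpinb5, was nearest at CT12, 113 kb from a LAD in both mice and 1185 to 2698 kb in the others. The CT12 LADs were small for their libraries, since the median LAD was 1220 kb in CT12 replicate 1 and 1560 kb in replicate 2, and only 15 of 265 and 8 of 243 LADs were smaller. Their GC content was 39.0% in both mice, beside library medians of 37.6% to 38.5% for LADs. LADs of up to 430 kb numbered 17 and 10 in the CT12 libraries and 0 to 38 in the 14 libraries, with 1 in CT18 replicate 1 and 0 in CT30 replicate 2. In libraries with so few small LADs, absence of such a LAD cannot be told apart from a size too small to be called.

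**Figure D3:**
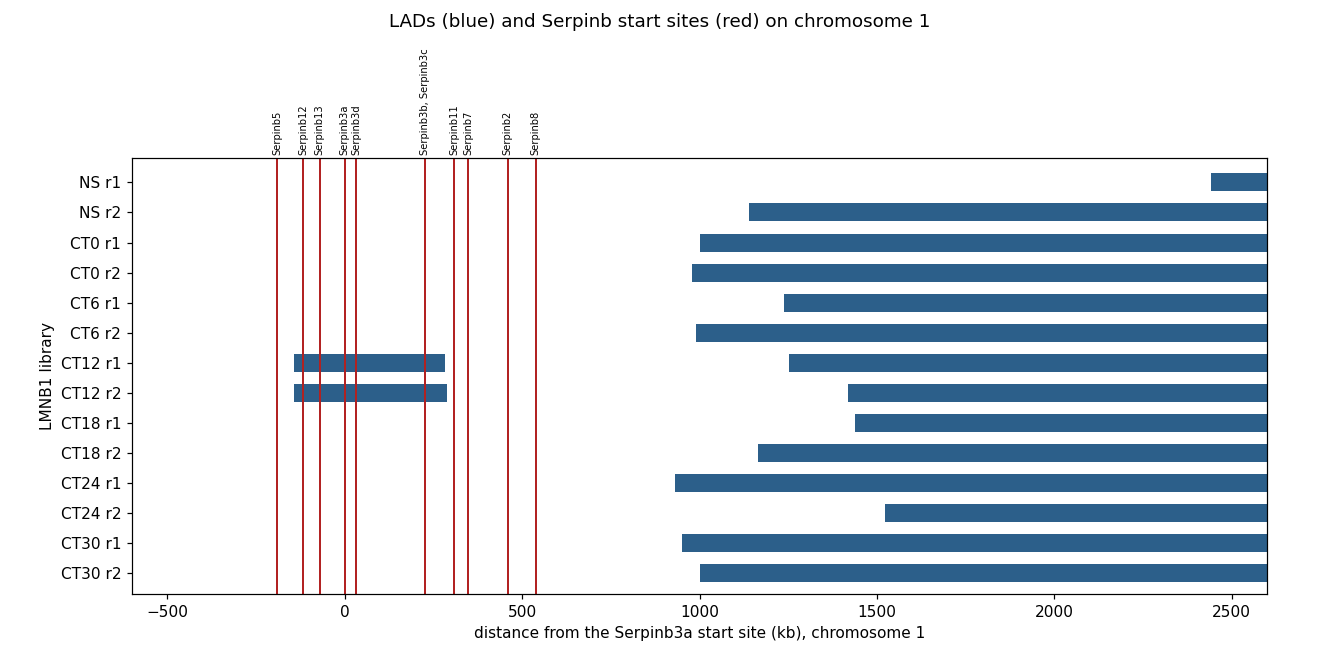
Horizontal bars are LADs of each library over and beside the Serpinb cluster of chromosome 1, in kb from the start site of Serpinb3a, and red lines are start sites. The CT12 libraries have a bar of 425 and 430 kb over the cluster, and all libraries have the large domain at the right.

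The 6 genes were in a LAD in both CT12 mice, as were 7.49% of all genes. A start site in a LAD in both CT12 mice and in no other library was found for 8 of 20807 genes (0.0384%), the 6 Serpinb genes, Rergl on chromosome 6 and Olfr376 on chromosome 11. From CT0 to CT12, 6 Serpin genes were gained in both mice (background 0.346%) and 0 lost (background 0.12%). From CT12 to CT18 those 6 were lost (background 0.178%) and 0 gained (background 0.457%). From CT12 to CT30 these 6 were also lost, against 2.36% of all genes, and 0 were gained, against 0.384%. As 1 LAD carried all 6 genes, these counts describe 1 LAD on chromosome 1 and not 6 separate changes. With LADs under 500 kb left out, 0 of these changes remained. With 2 mice against 2, an exact two-sided permutation test cannot go below p = 0.333, so no p is given for single changes.

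The question whether distance to the nearest LAD differed over the 6 CTs was put to each gene by setting its F ratio against those of the 10395 ways to divide the 12 CT libraries into 6 pairs (exact permutation test), with p adjusted by the Benjamini-Hochberg method over 20384 genes. At adjusted p below 0.05, 0 of the 60 Serpin genes and 0 of all genes (0%) were called, and the smallest adjusted p was 0.808 among Serpin genes and 0.280 among all genes. The divisions allow no p below 9.6e-05 in this exact permutation test, which limits calls after adjustment over 20384 genes. The 0 calls thus do not show that no distance differed. At an unadjusted p below 0.05 there were 7 Serpin genes, against a background of 5.48% of genes. That count was 0 with the replicate number as a block, 1 with LADs of at least 500 kb, and 0 to 14 when 1 library was left out, with 0 without CT30 replicate 1 or CT30 replicate 2, 1 without CT0 replicate 1 or CT18 replicate 1, 2 without CT6 replicate 2 and 14 without CT0 replicate 2. The 7 genes were Serpinb5 and the 6 genes inside the CT12 LAD, each with p = 0.0498 by the exact permutation test. The F ratio was 169 for Serpinb5. A difference that rests on 1 time point is limited in the p it can reach, because 945 of the divisions (9.09%) keep the 2 CT12 mice together.

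The moderated F test of limma assumes that scatter is normal on the log2 scale. By this test 9 of the 60 Serpin genes and 212 of 20384 genes had an adjusted p below 0.05. They were the 6 genes inside together with Serpinb5, Serpinb11 and Serpinb7, with limma adjusted p between 1.8e-05 (Serpinb12) and 0.0159 (Serpinb7). The call for the chromosome 1 cluster thus depended on the test. Both tests used the same distances, in which all 9 genes were nearer at CT12 in 2 of 2 mice. At CT12 those distances all refer to the same LAD, so the 9 genes are not separate results. For the 6 genes inside, the distance was 0 in both CT12 mice, so these mice show no scatter there.

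The Serpinb cluster of chromosome 13 (chr13:32842092-34002794, 1161 kb) holds 15 genes of 3 subfamilies, Serpinb1 (inhibitors of neutrophil elastase), Serpinb6 (inhibitors of cathepsin G) and Serpinb9 (inhibitors of granzyme B). A LAD lay over it in 3 libraries, chr13:33288001-33632000 (344 kb) in NS replicate 2, chr13:33110001-33880000 (770 kb) in CT6 replicate 2 and chr13:33108001-33870000 (762 kb) in CT18 replicate 2. The NS LAD held the start sites of Serpinb9f and Serpinb9g. The other 2 LADs each held Serpinb9c, Serpinb9d, Serpinb9e, Serpinb9f, Serpinb9g, Serpinb6d and Serpinb6e. No time point had the LAD in both of its mice.

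The promoters of Serpinb9f (chr13:33323827-33324126, plus strand) and Serpinb9g (chr13:33484540-33484839, plus strand), the only Serpin genes in a LAD in 3 libraries, are printed in the same way, and neither window holds the letters marked above.
Serpinb9f: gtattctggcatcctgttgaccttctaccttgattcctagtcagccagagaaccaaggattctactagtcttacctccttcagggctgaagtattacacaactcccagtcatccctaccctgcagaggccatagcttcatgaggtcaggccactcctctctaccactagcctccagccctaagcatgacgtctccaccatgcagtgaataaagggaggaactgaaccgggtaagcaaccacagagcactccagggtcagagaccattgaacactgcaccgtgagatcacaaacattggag
Serpinb9g: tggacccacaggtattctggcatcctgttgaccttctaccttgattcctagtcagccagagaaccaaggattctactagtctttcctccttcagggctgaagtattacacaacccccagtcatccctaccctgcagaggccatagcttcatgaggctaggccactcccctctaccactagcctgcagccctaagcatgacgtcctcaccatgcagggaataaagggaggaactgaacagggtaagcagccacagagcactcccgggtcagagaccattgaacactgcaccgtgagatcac
The windows of Serpinb9d, Serpinb9e, Serpinb9f and Serpinb9g were 82.9% to 93.4% identical over 6 pairs. Across the 14 chromosome 13 genes with a window, 2 had TATAAA (15.7% of all genes with a window) and 0 had GTTAAT (8.3% of all genes with a window). How reads shared by such copies were assigned was not checked here.

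Distances of Serpinb9f were 32007 and 0 kb in NS mice, 36565 and 5640.1 kb at CT0, 5149 and 0 kb at CT6, 5584 and 5494 kb at CT12, 5793 and 0 kb at CT18, 5800.1 and 5532 kb at CT24, and 27436 and 27488 kb at CT30. The values fell into 3 levels. Apart from the 3 mice inside a LAD, 7 mice had the nearest LAD 5149 to 5800.1 kb upstream and 4 mice (NS replicate 1, CT0 replicate 1 and both CT30 mice) 27436 kb or more downstream. Serpinb9g, 161 kb downstream of Serpinb9f, followed it in all 14 mice.

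The 5 other genes that entered a LAD did so in CT6 replicate 2 and CT18 replicate 2. In NS replicate 2 Serpinb9e was 38.4 kb and Serpinb6d 29.4 kb outside the smaller LAD, while Serpinb9d was 95.0 kb, Serpinb9c 128 kb and Serpinb6e 211 kb outside. The border genes were similar in the other 2 libraries. Serpinb1b on the upstream side was 31.4 kb outside in CT6 replicate 2 and 29.4 kb in CT18 replicate 2, and Serpinb6c on the other side 25.7 and 35.7 kb. Serpinb1a and Serpinb6a, at the ends of the cluster, were in a LAD in no library. Serpinb1a was nearest in CT18 replicate 2 (257 kb) and Serpinb6a in CT6 replicate 2 (123 kb).

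All 3 libraries with this LAD are labelled replicate 2, so that 3 of the 7 replicate 2 libraries and 0 of the 7 replicate 1 libraries had it. They had bin sizes of 4, 11 and 6 kb and 297, 284 and 341 LADs, whereas the replicate 1 libraries of the same groups had bin sizes of 61, 35 and 19 kb and 86, 134 and 159 LADs. The LAD was not called in CT0 replicate 2 (4 kb, 285 LADs), CT12 replicate 1 (5 kb, 265 LADs) or CT12 replicate 2 (10 kb, 243 LADs), whose bins were as small. The part of bin size in this difference was not tested. In 2 of the 3 groups the 2 mice thus differed for 7 genes and in the third for 2 genes, a difference between mice of 1 group. Over all libraries, 7 Serpin genes were in a LAD in replicate 2 libraries alone (background 1.67%) and 1, Serpini1, in replicate 1 alone (background 3.06%). A start site in a LAD in CT6 replicate 2 and CT18 replicate 2 and in no other library except NS replicate 2 was found in 51 genes (0.245%), and with NS replicate 2 included in 4 genes (0.0192%). Of those 4, 3 lie in this cluster, namely Serpinb9f, Serpinb9g and the gene Gm11397 between them.

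**Figure D4:**
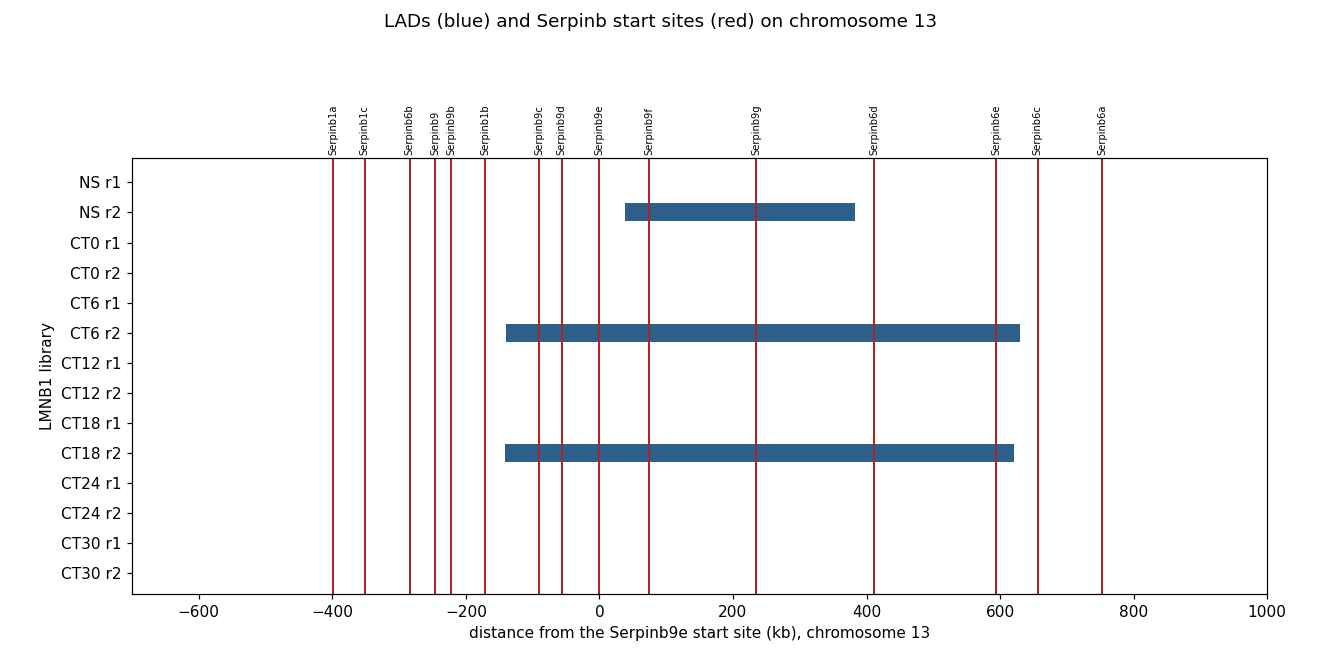
Horizontal bars are LADs of each library over the Serpinb cluster of chromosome 13, in kb from the start site of Serpinb9e, and red lines are start sites. Bars of 344, 770 and 762 kb appear in NS replicate 2, CT6 replicate 2 and CT18 replicate 2 and in no other row.

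The genes around the cluster were outside. Wrnip1 before it, Bphl after it, and Ripk1 and Nqo2, which lie among the Serpinb genes, were in a LAD in 0 of 14 libraries. Ripk1 and Nqo2 came as near as 122 and 84.7 kb. In the exact permutation test over CT0 to CT30 the smallest p of the cluster was 0.167 and its smallest Benjamini-Hochberg adjusted p 0.925. In the mean over 14 libraries 7.62% ± 16.9 (SD, n = 14) of the chromosome 13 genes were in a LAD, and 7.79% ± 19.8 (SD, n = 14) of the chromosome 1 genes. These SDs mix differences between groups with those between mice. The SD between the 2 mice of a group, pooled over all groups, was 18.0 percentage points for chromosome 13 and 0 for chromosome 1. The mean shares were alike, but they came from both mice of 1 time point on chromosome 1 and from 1 mouse each of 3 groups on chromosome 13. With LADs of at least 1 Mb alone, both means were 0%.

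The pair Serpini2 (pancpin, described in pancreas) and Serpini1 (neuroserpin, an inhibitor of tissue plasminogen activator in neurons) lies on chromosome 3. Serpini2 was in a LAD in both CT6 mice, in chr3:70490001-78120000 (7630 kb) in replicate 1 and chr3:73843001-75493000 (1650 kb) in replicate 2. Its promoter window (chr3:75270029-75270328, minus strand) carries 1 match to TATAAA and 3 to GTTAAT. The TATAAA match is on the other strand near the far end of the window. The GTTAAT matches on the strand of the gene lie after the start site.
Serpini2: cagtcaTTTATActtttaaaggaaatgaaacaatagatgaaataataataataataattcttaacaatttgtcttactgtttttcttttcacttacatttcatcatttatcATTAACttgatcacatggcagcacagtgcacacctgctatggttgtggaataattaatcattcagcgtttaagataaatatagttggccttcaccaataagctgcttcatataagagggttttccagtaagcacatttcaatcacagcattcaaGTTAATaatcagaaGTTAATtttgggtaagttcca
The distances of Serpini2 were 26897 and 126 kb in NS mice, 28411 and 102 kb at CT0, 0 and 0 kb at CT6, 185 and 749.9 kb at CT12, 2215 and 786 kb at CT18, 694 and 156 kb at CT24, and 2327 and 2130.1 kb at CT30. CT6 did not overlap with the other groups, although single mice of 4 groups came as near as 102 to 185 kb. Serpini1 was in the LAD in CT6 replicate 1 and 64.5 kb outside in replicate 2, and its distances in the other mice ran from 389.5 to 28699 kb.

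The 2 CT6 LADs differ in kind. In replicate 1 the LAD ran on both sides far past the pair and held 11 protein-coding start sites, and Serpini2 was 2849.9 kb from its border. In replicate 2 it held 3 start sites, and Serpini2 was 223 kb from the border. From CT0 to CT6 Serpini2 was the 1 Serpin gene gained in both mice (background 1.04%) and 0 were lost (background 0.0913%), and from CT6 to CT12 it was the 1 lost (background 0.442%), while the 6 genes of chromosome 1 were gained (background 0.538%). By the exact permutation test over the 6 CTs, p was 0.0698 for Serpini2 and 0.0505 for Serpini1, with a Benjamini-Hochberg adjusted p of 0.808 for both. A start site in a LAD in both CT6 mice alone was found in 28 genes (0.135%).

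**Figure D5:**
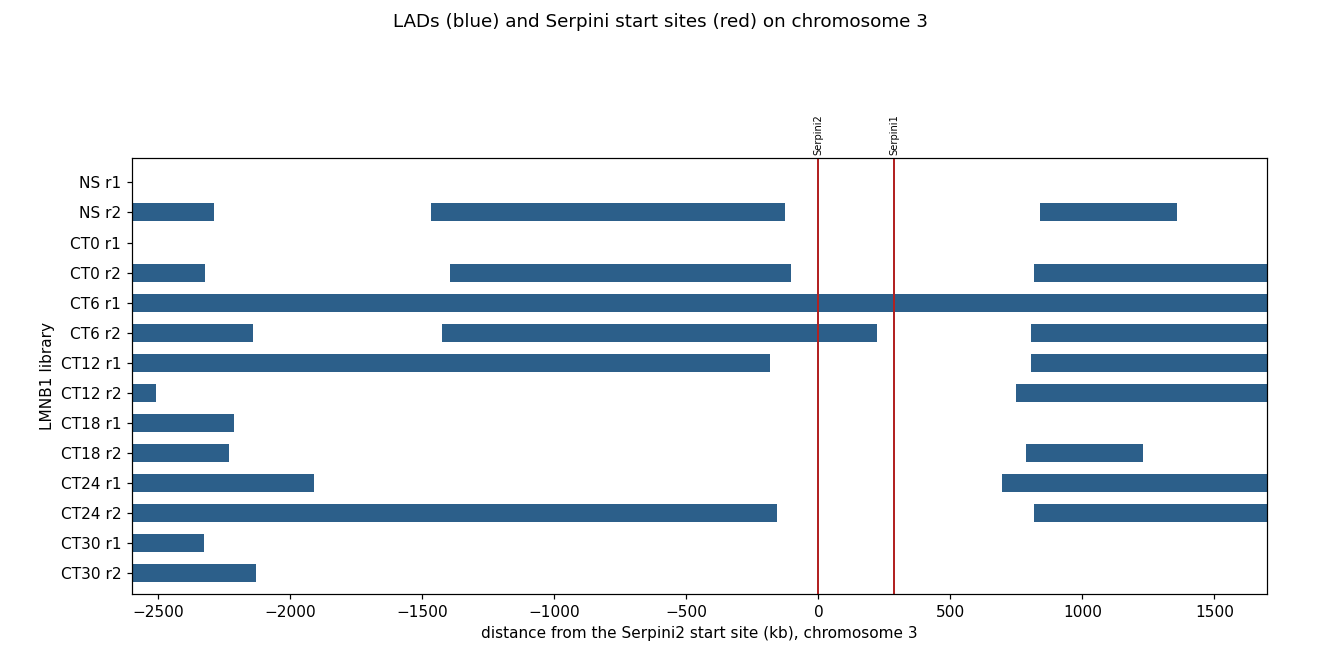
Horizontal bars are LADs of each library around Serpini2 and Serpini1 on chromosome 3, in kb from the start site of Serpini2, and red lines are the 2 start sites. Only the CT6 bars cross the start site of Serpini2, where the bar of replicate 1 measures 7630 kb and that of replicate 2 1650 kb.

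From NS to CT0, the comparison of mice before fasting with mice at refeeding, 0 Serpin genes were gained (background 0.346%) and 0 lost (background 0.38%) in both mice. The same held from CT18 to CT24 (background 0.231% gained, 0.476% lost) and from CT24 to CT30 (background 0.509% gained, 2.22% lost).

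The Serpina cluster of chromosome 12 (chr12:103614786-104414329, 800 kb) was far from LADs in all mice. It runs from Serpina10 (protein Z-dependent protease inhibitor) and Serpina6 (corticosteroid-binding globulin) over the alpha-1-antitrypsin genes Serpina1a to Serpina1e to the antichymotrypsin genes of the Serpina3 group, ending with Serpina3n. In every library 0 of its 23 genes were in a LAD and 0% of its span was covered. The gap before the cluster was 5.60 to 41.3 Mb over 14 libraries, and the gap after it 8.98 to 10.4 Mb in the 12 libraries with a LAD on that side.

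Promoters of a pair of alpha-1-antitrypsin genes are printed, as examples of liver genes of the family, Serpina1a (chr12:103863570-103863869, minus strand) and Serpina1e (chr12:103956848-103957147, minus strand).
Serpina1a: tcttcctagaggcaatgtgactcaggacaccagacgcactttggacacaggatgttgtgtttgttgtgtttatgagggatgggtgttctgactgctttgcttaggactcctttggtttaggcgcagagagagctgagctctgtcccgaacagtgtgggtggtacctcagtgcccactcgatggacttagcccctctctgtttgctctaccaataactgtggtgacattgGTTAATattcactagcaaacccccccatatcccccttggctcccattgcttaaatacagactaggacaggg
Serpina1e: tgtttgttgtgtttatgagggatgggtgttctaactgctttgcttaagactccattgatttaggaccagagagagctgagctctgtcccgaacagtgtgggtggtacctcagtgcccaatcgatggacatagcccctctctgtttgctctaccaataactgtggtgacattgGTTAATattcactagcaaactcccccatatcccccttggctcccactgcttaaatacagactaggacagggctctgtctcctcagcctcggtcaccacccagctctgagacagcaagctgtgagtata
Both hold GTTAAT, which was found in at least 1 window of 6 of the 18 Serpina genes, of 3 of the 10 chromosome 1 Serpinb genes and of 1 of the 9 single genes with a window, beside 8.3% of all genes with a window. The windows of Serpina1a to Serpina1d were 85.2% to 91.4% identical, and that of Serpina1e shared 63.3% to 69.3% with them. The printed windows of Serpina1a and Serpina1e hold nearly the same letters around GTTAAT, but at different places relative to the RefSeq start. Whether shifted windows account for the lower share was not tested, so it need not measure how far the promoters differ. The letters CACGTG, the E-box bound by clock factors, were in at least 1 window of 8.11% of all genes and of 0 of the 51 Serpin genes with a window.

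The start site of Serpina10 was 12802 and 5971 kb from the nearest LAD in NS mice, 13203 and 5911 kb at CT0, 6576 and 5643 kb at CT6, 5816 and 5921 kb at CT12, 6655 and 5867 kb at CT18, 5617 and 5819 kb at CT24, and 9767 and 6249 kb at CT30. The 3 largest values came from NS replicate 1, CT0 replicate 1 and CT30 replicate 1, so the mice of these groups differed more from each other than the other groups did. The other genes followed at a fixed gap, as no LAD lay between them. Serpina6 starts 25.8 kb beyond Serpina10, Serpina1a 232 kb, Serpina1e 328 kb, Serpina3k 707 kb and Serpina3n 775 kb, and they were that much farther from the nearest LAD in every library except CT30 replicate 1, where the nearest LAD was on the other side. Over the cluster the values ranged from 5617 kb (Serpina10 in CT24 replicate 1) to 13979 kb (Serpina3n in CT0 replicate 1). The smallest Benjamini-Hochberg adjusted p over CT0 to CT30 was 0.925 by the exact permutation test.

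Among the single genes, the plasma serpins made by the liver were outside LADs in all 14 mice. For Serpinc1 (antithrombin) distances were 11041 and 11223 kb in NS mice and 5491 to 14132 kb in the CT mice, where all but CT18 replicate 2 (5491 kb) were at 10767 kb or more. Serpind1 (heparin cofactor II) ranged from 1707 kb in CT18 replicate 2 to 42815 kb in NS replicate 1, with a median of 21923 kb. Serping1 (C1 inhibitor) came nearest, with 473 kb in CT24 replicate 2, a median of 655 kb and 9653 kb in NS replicate 1. Serpinf1 and Serpinf2 (alpha-2-antiplasmin) are neighbors on chromosome 11, and Serpinf1 was 1096 to 15873 kb from a LAD with a median of 4660.2 kb. Serpinf1 was within 1343 kb in 7 mice and 7978 kb or more away in the other 7, and both kinds occurred at CT0, CT6, CT18, CT24 and in NS mice.

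The other single genes included Serpine2 (protease nexin 1) at 583 to 28192 kb, Serpine3 at 8709 to 20043 kb and Serpinh1, a chaperone of collagen, at 2580.2 to 4059 kb. In the exact permutation test over CT0 to CT30 their Benjamini-Hochberg adjusted p values lay between 0.925 and 0.976.

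The clusters also differed in properties that the rule on symbols did not use. GC content in a window of 500 kb around the start site had a median of 45.9% in the Serpina cluster, 39.0% in the chromosome 1 cluster, 41.4% in the chromosome 13 cluster and 45.2% for single genes, beside 44.5% for all genes. Protein-coding start sites within 500 kb on each side numbered 24, 12, 14 and 14 in the median, beside 17 for all genes. Within the single genes Serpini2 (37.9%) and Serpini1 (38.4%), the 2 that met a LAD, were low in GC. In the chromosome 1 cluster the lowest (Serpinb2, 38.8%) and highest (Serpinb5, 40.9%) were genes that met no LAD, and those that met one lay between. In the chromosome 13 cluster the genes that met a LAD had 39.8% (Serpinb9g) to 41.6% (Serpinb6e). The others there had 41.1% (Serpinb1b) to 43.2% (Serpinb6a). These are descriptions over genes that share windows, without a test.

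The list of target proteases and partners of serpins comprised 30 genes, among them thrombin (F2), plasminogen (Plg), neutrophil elastase (Elane) and the fibrinogen genes, of which 29 are autosomal. Of these, 29 were in a LAD in no library (background 82.9%), and 6 (F12, Plau, Elane, Prtn3, Tmprss6 and Prss8) were over 5 Mb away in all, which is 20.7% beside 18.7% of all genes. Cathepsin L (Ctsl), a target of Serpinb3 proteins, came nearest, 99.1 kb from a LAD in CT6 replicate 1. The median of the median distance was 3833 kb, beside 3707 kb for all genes. At adjusted p below 0.05 there were 0 genes by the exact permutation test, and F2 alone had an unadjusted p below 0.05 (p = 0.0266, Benjamini-Hochberg adjusted p = 0.808), 3.45% of the list beside 5.48% of all genes.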

How the data were processed

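LMNB1 ChIP-seq LADs from liver of 14 mice were used, 2 per group, with replicate numbers as labelled. Per the labels and the study's methods, the authors mapped reads to mm10 with Bowtie2 (2.25.0 in the submitters' processing notes), filtered duplicate reads using Picard, brought ChIP and input to equal depth, and called LADs per mouse with EDD, with settings averaged over 10 runs. The deposited values are start and end positions only, with no score, count or signal, so depth is unknown. Inputs and RNA-seq were not analysed here.

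Genes were those of GENCODE vM21 and were in a LAD when the start site lay inside an interval. Distance to the nearest LAD was 0 inside. The test used log2(distance in kb + 1), an F ratio and exact permutation in Python 3.11.15 with NumPy 2.4.6, after checks on simulated data. The 423 genes with 1 value in all 12 CT libraries were not tested. The limma version was 3.58.1. Alternatives were a pseudocount of 10 kb, signed distance, gene bodies, LADs of at least 500 kb or 1 Mb, other gene types, a replicate block and leaving out each library. RefSeq start sites were an alternative added after seeing the data.

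Members and lists were chosen with earlier results of these data known. Every Serpin gene could be named, with values by library for those in a LAD, at the ends of clusters or secreted into plasma (lowest, median and highest for some), and 1 of them is not reported here. Replicates were separate mice, with 1 input library per group in the labels. Pairwise promoter identity came from global alignment with Biopython 1.88. RefSeq windows matched 51 of the 60 genes.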

Additional observations from a re-analysis of the deposited data

How the results depend on the processing

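The filter on LAD size changed the counts. With LADs of at least 500 kb, 9 Serpin genes in place of 15 were in a LAD in at least 1 library, and with at least 1 Mb 2 genes. Under either size filter the mean share of the chromosome 1 cluster was 0% in place of 7.79%, and the counts changed in both mice from CT0 to CT12 and from CT12 to CT30 were 0 in place of 6, since the LADs there are 425 and 430 kb. The chromosome 13 cluster had a mean of 0% with LADs of at least 1 Mb. By limma 9 Serpin genes, all in or beside the CT12 LAD of chromosome 1, and 212 of 20384 genes were called in place of 0 and 0. Leaving out 1 library gave a mean share of 4.20% to 8.39% for chromosome 1, lowest without CT12 replicate 1 or CT12 replicate 2, and of 4.62% to 8.21% for chromosome 13, lowest without CT6 replicate 2 or CT18 replicate 2. From NS to CT0 the count was 0 to 2 with 1 mouse per group, the 2 being Serpinb9f and Serpinb9g without replicate 1. The RefSeq start sites gave 14 genes, as Serpinb13 has no such window.

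The replicate numbers were not taken to pair the mice, since the correlation of deviations ran from -0.12 to 0.37 over 15 pairs of time points and exceeded 0.1 in only 4. Serpinb9f was nevertheless nearer to a LAD in replicate 2 in 6 of 7 groups. With the replicate block 0 Serpin genes and 0 of all genes were called at adjusted p below 0.05, as without it. The Serpin genes with an unadjusted p below 0.05 went from 7 to 0. The block test permutes 720 orders of the time points, so its p cannot go below 0.00139, which limits calls after adjustment over 20384 genes. A difference that rests on 1 time point is also limited in the p it can reach there, so these counts do not show whether such a difference holds. Leaving out any 1 of the 12 CT libraries also gave 0 calls among Serpin genes and among all genes.

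What limits these values is 2 mice per group, bin sizes from 4 to 61 kb and an unknown read depth. The smallest LAD in CT30 replicate 2 was 644 kb.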
